A study of Oncorhynchus mykiss with 6 samples.

Results

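Protocadherin genes were followed in the dorsal skin of yellow mutant rainbow trout (Oncorhynchus mykiss), sampled at 1 day and at 90 days of age and profiled by RNA sequencing. A gene was taken as a member when its symbol in the deposited table begins with pcdh or its product name holds the word protocadherin, which gave 132 of 43862 genes. Both symbol and product name met the rule for 111 of them, the symbol alone for 2 and the product name alone for 19. By these names 72 are clustered protocadherins (alpha, beta and gamma) and 60 are other protocadherins, including the giant cadherins Fat and Dachsous. Of the members, 127 carry a gene number of the reference gene table and 5 are assembled loci outside it, named MSTRG. Each age had 3 libraries, all of total RNA from the yellow mutant, so that ages were compared and colours were not. The labels do not give the genetic basis of the mutant, nor whether each library is a different fish. The p-values therefore rest on the spread between libraries, part of which may be technical. The series names 3 stages, and only these ages were analysed here.

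Protocadherins are cell surface proteins of the cadherin superfamily, in which a row of extracellular cadherin repeats binds the same protein on a neighbouring cell. In mammals the clustered genes lie in tandem. Each variable exon has a promoter of its own and is spliced to constant exons shared by its cluster, and the mixture of isoforms lets a neuron tell its own branches from those of its neighbours. The other protocadherins stand as separate genes. They act in cell sorting, axon growth and tissue shaping, partly through the WAVE complex, which drives actin branching, and Fat and Dachsous bind each other across cells to set tissue polarity and growth.

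Library totals ran from 16157312 to 18960866 counts. Markers of epidermis were present at both ages and made up 0.604% to 0.661% of day 1 counts and 2.05% to 2.59% of day 90 counts. The day 1 libraries, although labelled dorsal skin, also carried RNA of retina and lens and of neurons. Retina and lens markers took 0.272% to 0.351% of day 1 counts and 0.000717% to 0.00102% of day 90 counts, where 22 of the 46 matched genes had no count. Neuron markers took 0.262% to 0.301% and 0.0396% to 0.0430%. Without the genes of the stmn2 entry, some of which are named stathmin-like, the neuron share at day 90 was 0.00404% to 0.00422%, against 0.172% to 0.203% at day 1. Of the tested markers, 43 of 46 neuron genes and 32 of 33 retina and lens genes were lower at day 90, with median log2 fold changes of -6.50 and -11.10. Among all genes tested, 35.4% were lower and 32.5% higher. Fibroblast markers (15 of 18 higher, median 3.37), epidermis markers (51 of 74 higher, 13 lower, median 1.27), melanocyte markers (11 of 17 higher, 6 lower, median 2.25) and endothelium markers (4 of 5 higher, median 0.83) were more often higher. Muscle markers took 2.48% to 3.02% of day 1 counts and 0.373% to 1.31% of day 90 counts (9 of 35 higher, 19 lower), glia and myelin markers were mixed (10 of 22 higher, 7 lower), and 1 hair cell marker passed the filter and was lower. How far these differences in tissue makeup account for any protocadherin result was not tested. In bulk libraries such as these, fewer cells of a type and less RNA per cell cannot be told apart.

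The protocadherins took a smaller share of the raw counts at 90 days than at 1 day, mainly through the clustered genes. Together the 132 genes made up 0.223% ± 0.00175 of day 1 counts and 0.104% ± 0.0122 of day 90 counts (SD, n = 3 libraries per age). The clustered genes held 0.121%, 0.120% and 0.134% at day 1 and fell to 0.0262%, 0.0298% and 0.0299% at day 90. On raw totals the ages lay far apart for this share, with every day 1 library more than 4-fold above every day 90 library. The other protocadherins held 0.103%, 0.101% and 0.0905% at day 1 and 0.0658%, 0.0748% and 0.0866% at day 90, a smaller step, in which the highest day 90 library came close to the lowest day 1 library. On raw library sizes the median log2 fold change of all genes tested was itself -0.42. It was -0.03 with the composition factors (TMM) used in the tests below. The shares given here were not rescaled by these factors. The factors put the effective size above the total in each day 1 library and below it in each day 90 library. Taken against effective sizes, the shares of the other protocadherins overlap between the ages, so their smaller step does not hold on that scale. The gap of the clustered genes is narrower on that scale than on raw totals, and the ages still do not overlap.

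**Figure D1:**
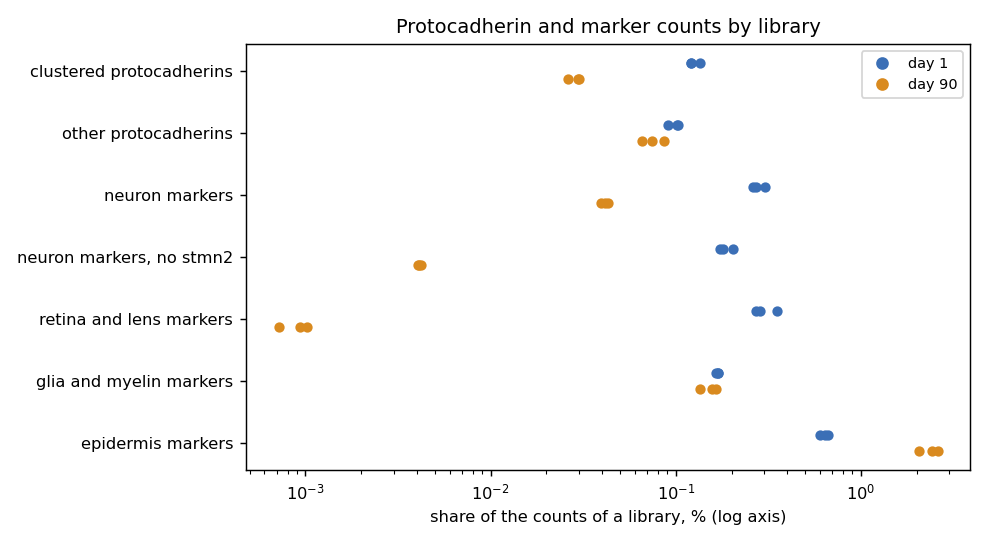
Share of all counts of a library, in percent on a log axis, held by the clustered protocadherins, the other protocadherins and the marker lists. Each point is 1 library, coloured by age; the clustered protocadherins sit at 0.120% to 0.134% at day 1 and 0.0262% to 0.0299% at day 90, and neuron and retina and lens markers are also lower at day 90.

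Across single genes, the decline reached every clustered protocadherin that could be tested, while the other protocadherins moved in both directions. Genes were tested when their FPKM, the count scaled to gene length and library size, reached 1 in 3 or more of the 6 libraries. That left 63 of the 132 members, of which 45 were lower at day 90, 10 were higher and 8 did not pass a Benjamini-Hochberg adjusted p of 0.05 in edgeR's quasi-likelihood test. Over all 29436 genes tested, 35.4% were lower, 32.5% were higher and 67.9% passed in either direction. The tested clustered genes were all 20 lower, and the 43 tested other genes split into 25 lower, 10 higher and 8 not passing. Normalized counts of the ages did not overlap for 55 of the 63 members, against 73.3% of all genes tested. The median log2 fold change of day 90 over day 1 was -3.36 for the clustered genes, -0.65 for the other genes and -0.03 for all genes tested.

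These counts over tested members are shaped by the filter, since 31 of the 63 passed it through the day 1 libraries alone. Their FPKM had to be lower in every day 90 library, which favours a lower call without fixing it. Through both ages 23 members passed, through day 90 alone 2, and through a mixture 7. Among the 27 members with a mean FPKM of at least 1 at both ages, 7 were clustered, all lower (median -1.54), and 20 were other protocadherins, of which 8 were higher, 4 lower and 8 did not pass (median 0.18). No share or median over all genes was taken under that condition, so these values have no background beside them. With no filter all 132 members could be fitted. Then 101 were lower, 11 higher and 20 did not pass, against 33.6% lower and 27.3% higher of 42269 genes (61.0% either way). The clustered genes gave 64 lower and 0 higher of 72, with a median of -4.02, or -2.71 when genes with no count at day 90 are set at their bound, and the other genes gave 37 lower and 11 higher of 60, with a median of -1.13. All 72 clustered genes had a fitted log2 fold change below 0, so none would be higher at an unadjusted threshold either. Just outside the filter, by their third-highest FPKM, lay Pcdh15 (110528891) at 0.95, PCDH12 (110504161) at 0.98 and PCDHAC2 (110504896) at 0.99, and just inside lay PCDHGA6 (110504892) at 1.03, PCDH17 (110520623) at 1.05 and Dchs1 (110507672) at 1.15.

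Absence of any count at 90 days was frequent among the clustered genes. No count was found in any day 90 library for 25 members, of which 21 were clustered, while 7.68% of all genes with a count were without one at day 90. Among tested genes it was 4 members, 2 of 20 clustered and 2 of 43 other protocadherins, against a background of 2.4%. Most of the 25 were thus too low for the FPKM filter, whereas the 7.68% covers genes of every level. The 25 were 16 alpha genes, 2 alpha-C2 genes, 2 gamma-A genes, 1 gamma-C5 gene and 4 other protocadherins. A further 18 members had 1 to 3 counts over the 3 day 90 libraries together. With day 90 set at a floor of 3 counts over the age and day 1 at its observed sum, the bounds of the 25 genes ran from 1.72-fold to 424-fold lower. They cover counting error at day 90 only. The smallest was that of PCDHA3 (110487716), with 0, 0 and 7 counts at day 1, which did not pass in the edgeR fit without a filter (adjusted p = 0.186). The ages overlapped for this gene and for PCDHA3 (118946035), with 13, 18 and 0 counts at day 1.

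**Figure D2:**
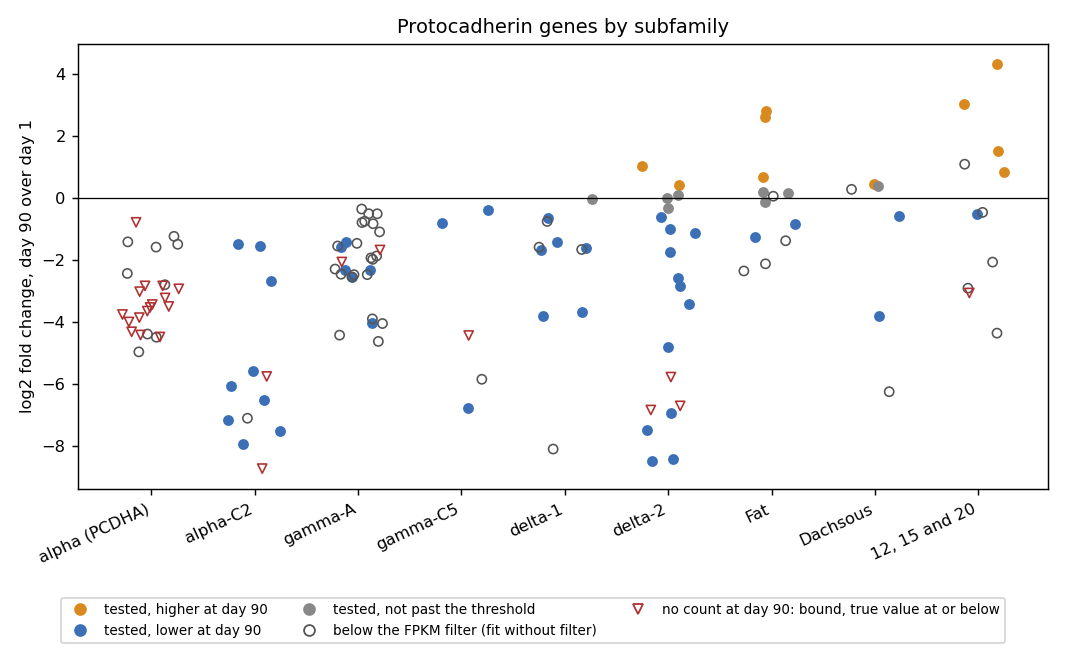
Log2 fold change of day 90 over day 1 for the protocadherins by subfamily, each point 1 gene. Filled points passed the FPKM filter, open circles come from the fit without a filter, and triangles mark genes with no count at day 90, placed at their bound; the alpha and alpha-C2 genes lie below 0 throughout and the points above 2 are Fat 2 and protocadherin 20 genes. The beta-named gene outside the arrays is not drawn.

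The clustered genes lie in 4 tandem arrays, called A to D here by size, which were read from the order of genes in the reference gene table of assembly USDA_OmykA_1.1. They hold 36, 21, 9 and 3 members, 69 of the 72, with 1 other coding gene between the members of A and 1 between those of B. Not placed in an array is CDHR5 (110500259), which entered by its product name, protocadherin beta-10-like. The 2 assembled loci, PCDHAC2 (MSTRG.18716) and PCDHAC2 (MSTRG.22753), have no entry in the reference gene table. Whether they lie within an array is therefore not known, and their counts are not in the array sums and shares given here. Gamma symbols and beta product names meet in 21 genes, so gamma and beta cannot be told apart by name here. In the reference annotation 36 of the 69 array members overlap another member, and how shared reads were counted is not stated in the labels or headers, so that the counts of single array members are uncertain.

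Few genes carried most of the RNA of each array. In array A, PCDHGC5 (110504858) and PCDHAC2 (110504859) held 70.1% to 75.3% of the array's counts at day 1 and 90.2% to 91.8% at day 90. In array B, PCDHGC5 (110488686) and PCDHAC2 (110488691) held 89.1% to 90.5% and 96.5% to 97.2%. PCDHGA3 (110533900) alone held 80.6% to 81.5% of array C at day 1 and 91.4% to 95.0% at day 90. Each of these 5 genes was lower at day 90. PCDHGC5 (110504858) alone went from 32.2% to 34.6% of array A to 72.1% to 76.9%, and PCDHGC5 (110488686) from 49.3% to 52.6% of array B to 64.1% to 68.0%. In array D, PCDHAC2 (110537220) had an FPKM of 11.6, 11.3 and 11.8 at day 1 and 2.82, 3.80 and 3.67 at day 90, and PCDHGA2 (110536820) had 7.33, 7.12 and 8.01 at day 1 and 1.40, 2.86 and 2.01 at day 90. Both were lower, by a log2 fold change of -1.49 ± 0.11 and -1.59 ± 0.17, and their shares of that array were alike at the 2 ages. Summed over members, the FPKM of the arrays went from 56.1 ± 2.55 to 11.5 ± 0.45 in A, from 76.1 ± 4.25 to 24.4 ± 2.83 in B, from 67.0 ± 4.25 to 7.66 ± 0.24 in C and from 19.4 ± 0.65 to 5.53 ± 1.23 in D (SD, n = 3). The 7 clustered genes with a mean FPKM of at least 1 at both ages had a length of 3252 to 9166 bases implied by their counts and FPKM (median 6056), against 1505 to 5689 (median 2718) in the other 65, whose mean FPKM at day 90 was at most 0.417. The part of length or of shared exons in this was not tested.

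**Figure D3:**
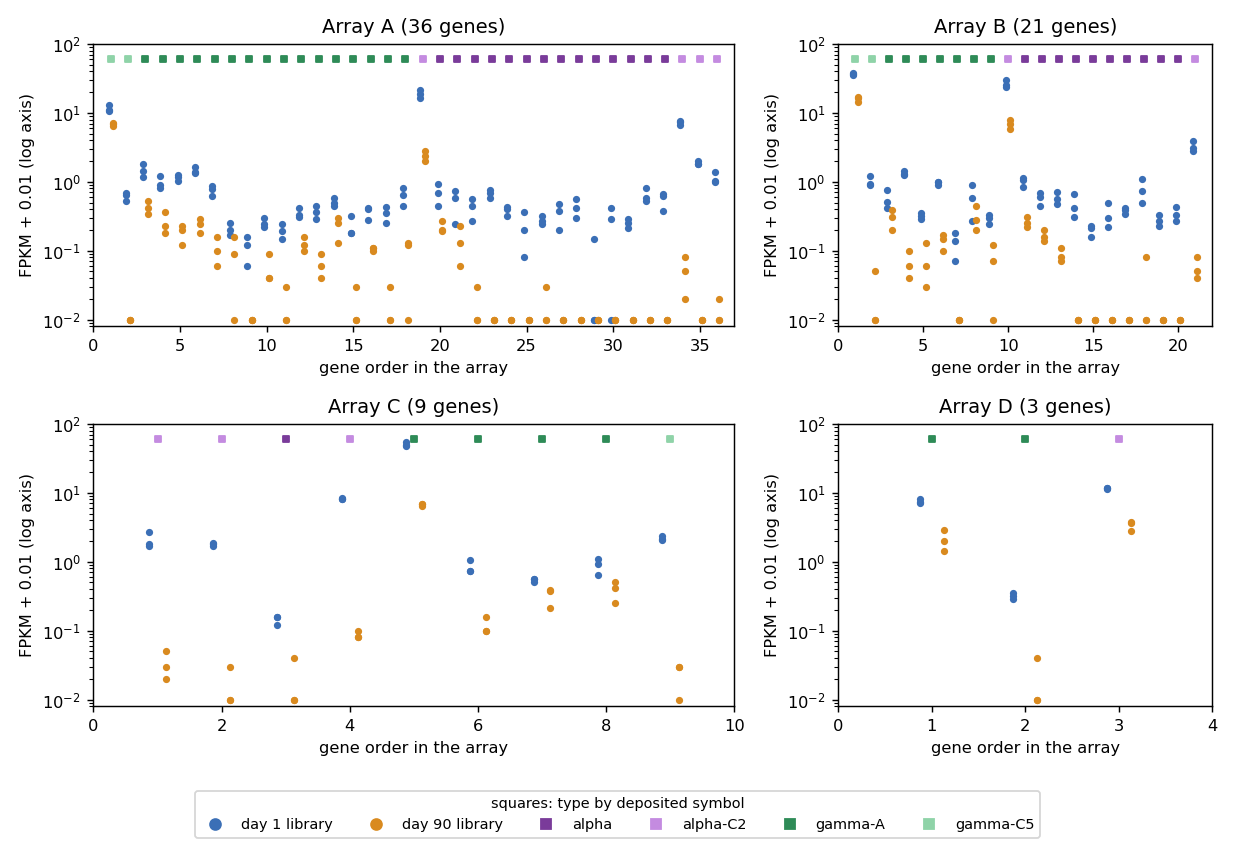
Level of each clustered protocadherin along arrays A to D, as FPKM + 0.01 on a log axis, against the order of the genes. Points are libraries coloured by age, a gene listed at 0 sits at 0.01, and squares give the type by the deposited symbol; in arrays A to C, few members remain above 1 at day 90, and most alpha genes lie at the bottom of the axis at day 90.

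Among gamma genes the most abundant was PCDHGA3 (110533900), whose product is named protocadherin beta-16-like. Its FPKM was 48.8, 47.5 and 54.8 at day 1 and 6.4, 6.86 and 6.91 at day 90. The ages did not overlap, and the log2 fold change was -2.53 ± 0.12 (SE; edgeR adjusted p = 2.18e-07). Gamma-C5, in mammals a C-type isoform that lies near the constant exons, is the symbol of 5 genes, which differed widely at day 90: their median of the mean FPKM was 0.0133 and the highest was 15.99. PCDHGC5 (110488686) had an FPKM of 36.2, 35.9 and 38.3 at day 1 and 14.4, 16.63 and 16.97 at day 90, a log2 fold change of -0.81 ± 0.11 (adjusted p = 1.42e-04). It was the clustered gene with the highest FPKM at day 90, again with no overlap of the ages. Its counterpart in array A, PCDHGC5 (110504858), had 10.9, 10.77 and 12.97 at day 1 and 7.07, 6.99 and 6.49 at day 90, and its call, at -0.37 ± 0.13 (adjusted p = 0.0317), was lost on leaving out 1 of 3 libraries in turn (adjusted p of 0.011 to 0.108 over the 6 omissions). That call was also lost in the edgeR fit without a filter (-0.32, adjusted p = 0.0629). In all, 6 of 29 gamma-A genes and 3 of 5 gamma-C5 genes were tested, all lower, against 35.4% of all genes tested. Of those tested, 4 gamma-A genes and 1 gamma-C5 gene passed the filter through day 1 alone. Without a filter 23 of the 29 and 4 of the 5 were lower and none was higher, against 33.6% lower and 27.3% higher of all genes fitted.

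The alpha-C2 symbol, in mammals a C-type alpha isoform that serotonin neurons use to spread their axons, was given to 12 genes. The product names of some disagree with it, protocadherin beta-15-like for 110488701 and 110504896 and protocadherin-10-like for 110533897. All 11 tested genes with the symbol were lower, against 35.4% of all genes tested. Their median log2 fold change was -6.50, or -6.07 with the genes that had no count at their bound. The filter shapes this, since 8 of the 11 passed it through day 1 alone. The 3 with a mean FPKM of at least 1 at both ages had a median of -1.54. The most abundant was PCDHAC2 (110488691) of array B, with an FPKM of 23.6, 25.1 and 29.7 at day 1 and 5.76, 7.0 and 8.0 at day 90 (-1.54 ± 0.15, adjusted p = 1.19e-05). PCDHAC2 (110504859) of array A had 18.6, 16.7 and 21.3 at day 1 and 1.97, 2.76 and 2.38 at day 90 (-2.68 ± 0.16, adjusted p = 5.86e-07). These genes and PCDHAC2 (110537220) of array D are the 3 of the symbol with a mean FPKM of at least 1 at both ages. PCDHAC2 (MSTRG.22753), an assembled locus, had 14.82, 15.95 and 16.72 at day 1 and 0.12, 0.03 and 0.02 at day 90 (-7.95 ± 0.30, adjusted p = 5.95e-08). PCDHAC2 (110533898) of array C had 8.04, 8.25 and 8.39 at day 1 and 0.09, 0.07 and 0.07 at day 90 (-6.50 ± 0.19, adjusted p = 2.16e-08). PCDHAC2 (110504893) of array A had 6.75, 7.33 and 7.74 at day 1 and 0.01, 0.07 and 0.04 at day 90 (-7.14 ± 0.27, adjusted p = 6.25e-08). The last 3 were near 0 in every day 90 library, and PCDHAC2 (MSTRG.18716), picked out after its values were seen, fell from 1728 counts over the day 1 libraries to 0, at least 424-fold lower.

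The 25 remaining alpha genes were too low to pass the FPKM filter, at a mean FPKM of 0.0467 to 1.00 at day 1 and 0 to 0.25 at day 90. In the fit without a filter 24 were lower, against 33.6% of all genes fitted, and 1 did not pass. The alpha genes that follow the abundant alpha-C2 gene in arrays A and B were looked at in order after their values were seen. Each run is described on either side of the point where the day 90 sum first fell to 3 counts or fewer, so the day 90 counts set the division and only its position is described. In array A the 2 alpha genes nearest to PCDHAC2 (110504859) had 165 counts over the day 1 libraries and 46 over the day 90 libraries. The 12 genes beyond them had 615 and 2 counts, and 10 of the 12 had none at day 90. In array B the 3 alpha genes nearest to PCDHAC2 (110488691) had 350 and 77 counts, and the 7 beyond them had 377 and 3. Those 3 counts all belonged to PCDHA3 (118938741), in 1 library, and 6 of the 7 had none. Reads shared between near-identical alpha genes may be split among them.

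The delta-1 protocadherins have in mammals a tail motif that binds a protein phosphatase. They were lower in 6 of 7 tested genes of 11, against 35.4% of all genes tested. Of the 7, 3 passed the filter through day 1 alone and 1 had a mean FPKM of at least 1 at both ages. PCDH1 (110489032), known from the airway epithelium in human, was the exception. Its FPKM was 4.44, 4.56 and 3.67 at day 1 and 3.40, 4.93 and 3.89 at day 90, and it did not pass (-0.03 ± 0.13, adjusted p = 0.821), although it was called lower by library size alone (-0.42, adjusted p = 0.0233). A second copy, PCDH1 (110533892), had 1.91, 1.52 and 2.11 at day 1 and 0.07, 0.08 and 0.15 at day 90 (-3.82 ± 0.27, adjusted p = 1.95e-06), so that the copies differed. PCDH7 (110531892), known as NF-protocadherin from the embryonic ectoderm of Xenopus, had 3.72, 3.13 and 3.88 at day 1 and 0.71, 1.11 and 1.10 at day 90, with no overlap (-1.62 ± 0.17, adjusted p = 2.18e-05). Both tested PCDH11 genes and the tested PCDH9 gene were lower as well.

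The delta-2 protocadherins, several of which bind the WAVE complex in mammals, were lower in 14 of 19 tested genes of 20, higher in 2 and not past the threshold in 3, against 35.4% lower and 32.5% higher over all genes tested. The filter shapes this count, since 10 of the 19, among them the tested PCDH8 and PCDH17 genes, passed it through day 1 alone. Among the 9 with a mean FPKM of at least 1 at both ages, 4 were lower, 2 higher and 3 did not pass (median log2 fold change -0.30). No share over all genes was taken under that condition, so these counts cannot be set against a background. PCDH8, also known as paraxial protocadherin and needed for cell movements in the gastrula and somites of Xenopus and zebrafish, was at or near 0 at day 90. Its 6 genes had a mean FPKM of at most 0.0167 at day 90, and the 5 that were tested were each lower. PCDH8 (110530636) had an FPKM of 3.85, 3.63 and 4.36 at day 1 and 0, 0 and 0.05 at day 90, a ratio of normalized counts of 196 (95% interval 67.0 to 954). PCDH8 (110501405) had 1.87, 2.18 and 3.02 at day 1 and 0, 0 and 0.01 at day 90, a ratio of 474 (84.7 to 18736). These intervals count a handful of reads at day 90 and cover counting error only. All 4 PCDH17 genes, a synaptic protocadherin in mammals, were lower, by a median of -3.82. PCDH17 (110501408) had no count at day 90 and was at least 104-fold lower. Both PCDH19 genes, whose product acts with N-cadherin in zebrafish, were lower by less, at -1.11 ± 0.15 for PCDH19 (110488981) and -0.59 ± 0.13 for PCDH19 (110505190).

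PCDH10 and PCDH18 moved differently between their copies. PCDH10, whose copies are needed for the migration of pigment cell precursors in zebrafish, had 4 tested genes. PCDH10 (110488809) had an FPKM of 5.61, 5.39 and 6.04 at day 1 and 0.37, 0.48 and 0.35 at day 90, with no overlap (-3.40 ± 0.16, adjusted p = 1.54e-07). PCDH10 (MSTRG.30109) and PCDH10 (110513050) were also lower, at -1.75 ± 0.15 and -0.98 ± 0.15. PCDH10 (110505016) had 5.24, 4.80 and 5.66 at day 1 and 4.42, 5.64 and 6.30 at day 90. The FPKM of the ages overlapped, and the gene was called higher with TMM factors (0.43 ± 0.13, adjusted p = 0.0161) but not by library size alone (0.05, adjusted p = 0.762). Leaving out 1 of 4 libraries in turn lost that call (adjusted p of 0.00484 to 0.0725 over the 6 omissions). PCDH18 (110505015), whose product binds the adaptor Dab1 in the mouse, had 7.56, 6.83 and 4.94 at day 1 and 8.56, 10.8 and 11.1 at day 90 and was higher (1.04 ± 0.15, adjusted p = 1.78e-04). It was the most abundant protocadherin outside the arrays at day 90. PCDH18 (110488808) had 7.78, 7.15 and 5.08 at day 1 and 3.84, 4.30 and 4.26 at day 90; the FPKM did not overlap, but the gene did not pass (-0.30 ± 0.14, adjusted p = 0.0886). The other two PCDH18 genes did not pass either.

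The ratio of 1 copy to another within a library does not depend on how libraries are scaled. For each of 5 protocadherins the copy with the highest FPKM at day 90 was set over another copy. That other was the copy, among the rest, with the highest FPKM at day 1. The choice was made after the values were seen and is therefore given with no test. It favours a ratio that is higher at day 90, so the direction of the change carries no weight. Other protocadherins with more than 1 copy were not compared in this way. The log2 ratio of PCDH18 (110505015) to PCDH18 (110488808) was -0.04, -0.07 and -0.04 at day 1 and 1.16, 1.33 and 1.38 at day 90. That of PCDH10 (110505016) to PCDH10 (110488809) was -0.10, -0.17 and -0.09 at day 1 and 3.58, 3.55 and 4.17 at day 90. These copies were thus level with each other at day 1 and apart at day 90 in every library. The mean log2 ratio of PCDH1 (110489032) to PCDH1 (110533892) went from 1.2 ± 0.39 to 5.41 ± 0.65, and that of Pcdh20 (110496967) to PCDH20 (110489161) from -0.34 ± 0.10 to 1.15 ± 0.29 (SD, n = 3). For the FAT2 pair it went from 0.66 ± 0.37 to 0.87 ± 0.34, with overlap. 

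**Figure D4:**
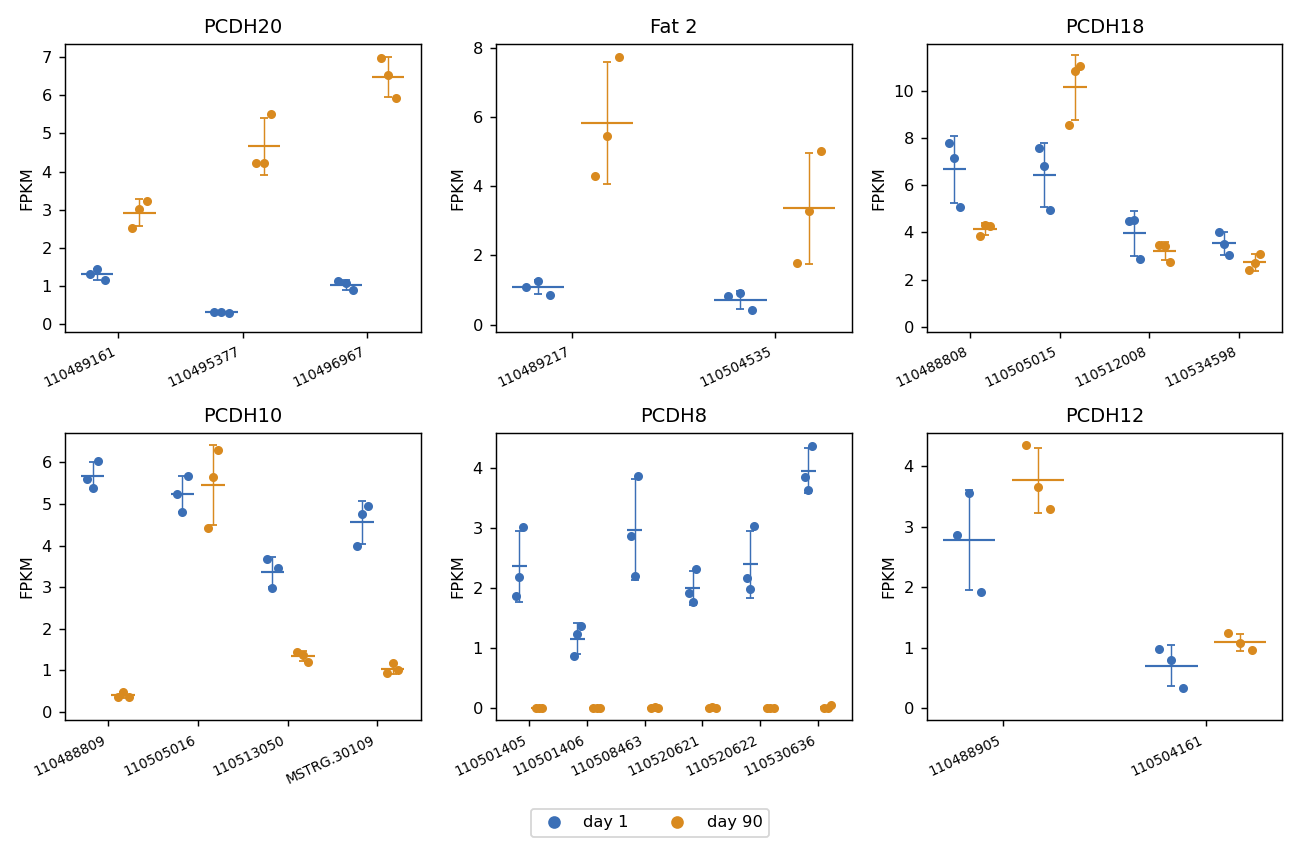
FPKM in each library of the copies of PCDH20, Fat 2, PCDH18, PCDH10, PCDH8 and PCDH12, by age; points are libraries and bars give the mean ± SD of 3 libraries. At day 90, PCDH18 (110505015) sits at 8.56 to 11.1 and PCDH18 (110488808) at 3.84 to 4.30, although both lie between 4.94 and 7.78 at day 1.

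Fat genes, giant cadherins with many repeats, were tested in 8 of 12 members, of which 3 were higher, 2 lower and 3 did not pass. Over all genes tested, 32.5% were higher and 35.4% lower. FAT1, an actin regulator of epithelia in mammals, was the most abundant. FAT1 (MSTRG.30390) had an FPKM of 5.91, 5.55 and 4.36 at day 1 and 5.62, 6.34 and 7.35 at day 90; the FPKM overlapped, and it was called higher with TMM factors (0.67 ± 0.13, adjusted p = 0.00133) but not by library size alone (0.29, adjusted p = 0.11), and lower with epidermis scaling (-0.63). FAT1 (MSTRG.16216) had 6.85, 6.73 and 4.76 at day 1 and 5.08, 5.17 and 5.93 at day 90 and did not pass (0.21 ± 0.14, adjusted p = 0.211). FAT2, which acts in the migration of human squamous carcinoma cells, stood out from these. FAT2 (110489217) had 1.09, 1.27 and 0.87 at day 1 and 4.29, 5.46 and 7.74 at day 90, with no overlap (2.81 ± 0.20, adjusted p = 2.05e-06), and its copy Fat2 (110504535) had 0.82, 0.91 and 0.41 at day 1 and 1.79, 3.28 and 5.01 at day 90 (2.61 ± 0.36, adjusted p = 1.44e-04). Both tested FAT3 genes, whose product shapes dendrites of retinal neurons in the mouse, were lower (-1.25 ± 0.12 and -0.84 ± 0.10), and both tested FAT4 genes did not pass (0.15 ± 0.16 and -0.13 ± 0.12). The filter was passed through day 1 alone by both tested FAT3 genes and through day 90 alone by Fat2 (110504535).

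Dachsous, the ligand of Fat 4, is named protocadherin-16, protocadherin-23 or Dachsous in the table, and 4 of its 6 genes were tested. Dchs1 (110503349) had an FPKM of 1.36, 1.34 and 1.17 at day 1 and 1.32, 1.29 and 1.49 at day 90; the FPKM overlapped and the gene was called higher by a small step (0.47 ± 0.11, adjusted p = 0.00455). A gene with no symbol and the product protocadherin-16 (110524462) had 2.84, 3.12 and 3.04 at day 1 and 0.11, 0.19 and 0.18 at day 90 (-3.81 ± 0.25, adjusted p = 1.13e-06). Dchs1 (110510266) was lower at -0.59 ± 0.14 and Dchs1 (110507672) did not pass. Both lower Dachsous genes passed the filter through day 1 alone. The higher call of Dchs1 (110503349) was lost by library size alone (0.08, adjusted p = 0.577) and turned to a lower call with epidermis scaling (-0.83).

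Of the remaining protocadherins 12, 15 and 20, 5 of 11 were tested, 4 of them higher and 1 lower. Among all genes tested, 32.5% were higher and 35.4% lower. The lower gene, Pcdh15 (110498975), passed the filter through day 1 alone, and Pcdh20 (110495377) passed it through day 90 alone. All 3 protocadherin 20 genes were higher, and these were among the few members that were more abundant at 90 days by a wide margin. Pcdh20 (110495377) had an FPKM of 0.32, 0.31 and 0.29 at day 1 and 4.23, 4.22 and 5.52 at day 90 (4.32 ± 0.18, adjusted p = 8.57e-08). Pcdh20 (110496967) had 1.12, 1.08 and 0.88 at day 1 and 6.98, 6.54 and 5.93 at day 90 (3.05 ± 0.16, adjusted p = 2.91e-07). PCDH20 (110489161) had 1.31, 1.43 and 1.16 at day 1 and 2.53, 3.02 and 3.22 at day 90 (1.54 ± 0.16, adjusted p = 2.24e-05). No library of either age overlapped the other age for these genes, whose summed FPKM was 2.63 ± 0.27 at day 1 and 14.1 ± 0.53 at day 90 (SD, n = 3). PCDH12, a cadherin of vascular endothelium in mammals, had 2.86, 3.56 and 1.92 at day 1 and 4.35, 3.65 and 3.29 at day 90 for PCDH12 (110488905), which was called higher with TMM factors (0.83 ± 0.21, adjusted p = 0.00627) but not by library size alone (0.43, adjusted p = 0.096), and whose FPKM overlapped. PCDH15, part of the tip link of hair cells, had 1 tested gene of 6, Pcdh15 (110498975), which was lower (-0.53 ± 0.19, adjusted p = 0.0334), a call that was lost on leaving out 1 of 4 libraries in turn and in the fit without a filter. Of the genes with a Pcdh15 symbol, 110496485 has the product cadherin-related family member 5-like and 118944657 the product neural-cadherin, so their symbols and products disagree.

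Several of the higher calls changed with the way the libraries were put on a common scale. Without composition factors, by library size alone, the median log2 fold change of all genes tested was -0.42 in place of -0.03, and scaled to the 74 tested epidermis markers it was -1.33. All 45 lower calls were kept under either scaling. Of the 10 higher calls, library size alone kept 6, namely the 3 protocadherin 20 genes, both FAT2 genes and PCDH18 (110505015). The epidermis scaling kept 4, Pcdh20 (110495377) at 3.03, Pcdh20 (110496967) at 1.78, FAT2 (110489217) at 1.49 and Fat2 (110504535) at 1.27. It turned FAT1 (MSTRG.30390) to -0.63, Dchs1 (110503349) to -0.83 and PCDH10 (110505016) to -0.89, each now called lower, and left PCDH20 (110489161), PCDH18 (110505015) and PCDH12 (110488905) without a call at 0.24, -0.25 and -0.42.

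**Figure D5:**
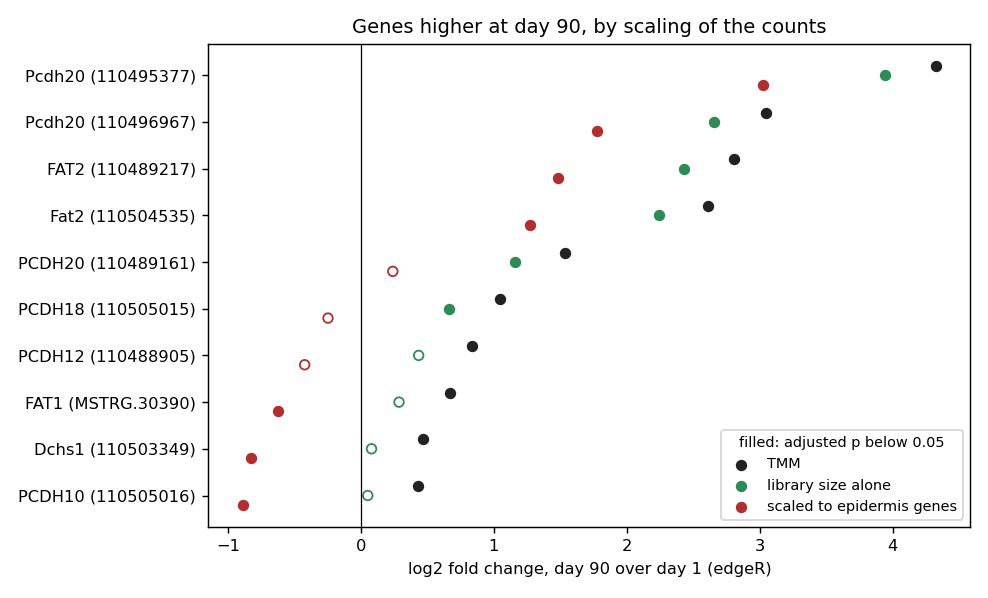
Log2 fold change of day 90 over day 1 of the 10 protocadherins called higher, under different scalings of the counts (edgeR). Each row is 1 gene and each symbol 1 scaling, and the upper 4 genes stay above 0 and called under all of them. With the epidermis scaling FAT1 (MSTRG.30390), Dchs1 (110503349) and PCDH10 (110505016) cross to below 0 and are called lower. PCDH18 (110505015) and PCDH12 (110488905) also cross to below 0, without a call.

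Genes whose products work with protocadherins were described from 8 lists and named by the smallest adjusted p in each direction. The counts of each list stand beside 32.5% higher and 35.4% lower over all genes tested. The cadherin list was taken by cdh symbols and is not limited to classical cadherins, since it also holds cdh13, cdh17 and cdh23. Of its 37 tested genes, 11 were higher and 19 lower (median log2 fold change -1.40, against -0.03 over all genes tested). The epidermal B-cadherin genes CDH1 (110506405) and CDH1 (110526291), which are also on the epidermis marker list, as plakoglobin is, rose by 2.06 ± 0.19 and 1.30 ± 0.12 on the log2 scale, while cdh2 (110508639), N-cadherin of neural tissue, was at -1.98. CDH17 (110535663), an intestinal cadherin in mammals, was at -6.18. Catenins, which tie cadherins to actin, gave 12 higher and 5 lower of 19 (median 0.60), with JUP (110486185), plakoglobin, at 2.08 and CTNNA2 (110534326), the neural alpha-catenin, at -3.32. Calsyntenins, cadherin-like proteins of the synapse, gave 0 higher and 6 lower of 7 (median -2.05), with CLSTN3 (110489358) at -6.75. Each of these named genes passed the test.

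In the planar polarity list, with the seven-pass cadherins, 8 of 26 were higher and 12 lower (median -0.11). The shares over all genes tested, 32.5% higher and 35.4% lower, stand beside the counts here as well. Vangl1 (110527404) was at 0.98 and PRICKLE1 (110499701) at 0.87, while CELSR3 (110531177) and fzd3 (110529833), which guide axons in the mouse, were at -4.98 and -5.99. The WAVE complex gave 10 higher and 16 lower of 30 (median -0.37). Its genes differed, with WASF3 (110510078) at 2.82 and WASF2 (110496488) at 1.25 against CYFIP2 (110504382) at -4.68 and CYFIP2 (110487766) at -3.42. WASF3 (110510078) is a minor copy, with a mean FPKM of 0.253 at day 1 and 1.37 at day 90. Summed over the 8 genes of the wasf3 entry, the mean FPKM fell from 23.9 at day 1 to 3.98 at day 90. The kinases bound by clustered protocadherins gave 3 higher and 2 lower of 11 (median 0.06), with PTK2B (110498235) at 2.03 and RET (110502270) at -2.62. The enzymes that shed protocadherins gave 7 higher and 2 lower of 10 (median 0.66), with Ncstn (110530567), nicastrin of gamma-secretase, at 2.26. ADAM10, the sheddase, had copy 118944511 at 1.81 and copies 110521213 and 110502564 at -0.76 and -1.09. The genes of promoter choice and chromatin at the clusters in mammals gave 7 higher and 17 lower of 44, and 20 did not pass (median -0.13). SMCHD1 (110489940), a chromatin protein that silences clustered protocadherins in the mouse, was at 0.66 and NCOR1 (110537494), a corepressor, at 0.64. DNMT3B (110492746) and DNMT3B (110532515), DNA methyltransferases whose product name is 3A-like, were at -2.60 and -1.83.

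In the authors' deposited table, whose test no label or header names, 96 of the 132 protocadherins were lower, 11 higher and 25 did not pass an FDR of 0.05, against 32.3% lower and 23.5% higher of 43862 genes. By the same deposited table the clustered genes gave 59 lower and 0 higher of 72, and the other genes 37 lower and 11 higher of 60.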

How the data were processed

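The authors deposited 1 table with a whole-number count and an FPKM per gene and library, plus a log2 fold change and its FDR (an adjusted p-value), per the file headers. Tools listed, per the submitters' processing notes, are TopHat2 2.1.1 and Bowtie2 2.2.8. For the counter, the genome build, strand and shared reads, the labels and headers give nothing. Age and replicate number came from the sample titles.

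Counts of all 43862 genes gave library sizes. The 29436 genes with FPKM of at least 1 in at least 3 libraries were fitted with edgeR 4.0.16 (R 4.3.3; TMM factors, quasi-likelihood test, age as the only term) and Benjamini-Hochberg adjustment across them (threshold 0.05). SE is the absolute log2 fold change divided by the root of F. A gene with no count at an age got a floor of 3 counts over that age, and 1 to 3 counts an exact 95% binomial interval. Overlap of the ages was read on TMM-normalized counts unless FPKM is named. DESeq2 1.42.0 and limma 3.58.1 were alternatives. The fits were tested on simulated data.

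Values in all libraries are given for the 2 most abundant tested genes of each subfamily, the 4 with the smallest adjusted p in each direction among clustered and other genes, the 3 most abundant that did not pass, and, among partners, those with the smallest adjusted p. Any further gene was chosen after its values were seen. Members and lists were chosen with earlier results of these data known. List entries matched symbols with copy suffixes; rhoa and rhob GTPases, caught by the rho entry, and MPZL genes, caught by mpz, were removed after the matches were seen. Array order came from the reference gene table, without coordinates, since the build of the deposited table is not stated. Sequences and promoter motifs were not used here.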

Additional observations from a re-analysis of the deposited data

How the results depend on the processing

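Over the alternatives run, the direction of the clustered genes did not change and 0 of them were higher under any. Counts of higher protocadherins, and of higher ones outside the clusters, were 10 in the main analysis, 6 by library size alone, 4 with epidermis scaling, 6 with limma on log2(FPKM + 1), 6 on log2(FPKM + 0.1), 3 with FPKM of at least 5, and 6 among members whose symbol and product name both fit. Lower protocadherins numbered 45, and 101 without a filter, 89 with filterByExpr and 14 with FPKM of at least 5; for clustered genes 20 became 64, 53 and 11, and for the others 25 became 3 with FPKM of at least 5. The filters admit different numbers of members, 63 in the main analysis, 132 without a filter, 117 with filterByExpr and 19 with FPKM of at least 5. They also admit different genes, so the counts are not directly comparable. The median log2 fold change of clustered genes, -3.36, was -4.66 with epidermis scaling, -1.54 with limma on log2(FPKM + 1), -4.02 without a filter, -2.49 with filterByExpr and -2.69 with FPKM of at least 5. That of the others, -0.65, was -1.03 by library size, -1.96 with epidermis scaling, -0.96 with limma on log2(FPKM + 0.1), -1.13 without a filter, -1.0 with filterByExpr, -1.42 among members fitting by both names, and reversed to 0.17 with FPKM of at least 5; the cause was not tested.

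Of the named members, epidermis scaling reversed Dchs1 (110503349) to -0.83, FAT1 (MSTRG.30390) to -0.63, FAT1 (MSTRG.16216) to -1.08, PCDH18 (110505015) to -0.25 and PCDH12 (110488905) to -0.42. FAT1 (MSTRG.16216) also reversed to -0.18 by library size, -0.14 with limma on log2(FPKM + 1) and -0.16 on log2(FPKM + 0.1), and PCDH1 (110489032), which did not pass, to 0.011 without a filter, 0.012 with filterByExpr and 0.019 without day 90 replicate 1 (-0.20 without day 90 replicate 2). Leaving out 1 library at a time gave 9 to 10 higher and 43 to 45 lower, 19 to 20 clustered and 24 to 25 other lower, and medians of -3.58 to -3.24 for clustered and -0.77 to -0.59 for other genes. Same-numbered libraries did not deviate together (r = -0.09, 0.00 and -0.12), and differently numbered ones gave r of -0.07 to 0.12. No pairing was seen. The check cannot exclude one, since each deviation is taken from a mean of only 3 libraries. With the replicate block 10 were higher and 43 lower. Depth limits the low genes, above all the alpha genes, whose day 90 values rest on few or no counts.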
